A study of Mus musculus with 22 samples.

Results

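Interferon response genes are transcripts that cells make after an interferon binds its receptor. A list of 39 of them was read in whole mouse pancreas with and without Ehmt2, the histone methyltransferase G9a, by taking every gene of the list by name from the deposited count tables. All 39 were found, among 16235 genes listed in any of the 6 tables. The 22 polyA RNA-seq libraries came from the pancreata of C57Bl/6 mice in 8 groups. The caerulein-treated adults, taken as a model of acute pancreatitis, were 2 Pdx1-Cre Ehmt2fl/fl against 4 Pdx1-Cre Ehmt2+/+ mice, and 3 P48-Cre Ehmt2fl/fl against 2 P48-Cre Ehmt2+/+ mice. They had fasted for 12 h and received 50 µg/kg caerulein, a secretagogue that overstimulates acinar cells, once an hour for 8 injections, and the organ was taken 18 h after the first. By the study's methods the treated mice were 4 weeks old. The untreated young adults (YA), labelled 1 month old, were 3 Pdx1-Cre Ehmt2fl/fl against 2 Pdx1-Cre Ehmt2+/+ mice. The postnatal (PN) day 10 pups were 3 Pdx1-Cre Ehmt2fl/fl against 3 Pdx1-Cre Ehmt2+/+ mice. Every mouse, controls included, carried a Cre driver, either the Pdx1-Cre transgene or, for P48-Cre, a Cre inserted at the Ptf1a locus, and both act in the epithelial lineage of the pancreas, so that the vessels, fibroblasts and immune cells of the same tissue keep Ehmt2.

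Type I interferons signal through Ifnar1 and Ifnar2 to the kinases Jak1 and Tyk2, which activate factors such as Stat2. With Irf9, Stat2 is part of a complex that binds the interferon-stimulated response element in DNA, whereas the response to interferon gamma runs through a different site, the gamma-activated sequence. The genes induced include sensors of foreign nucleic acid, enzymes and binding proteins that block viral replication, factors that carry the signal on, and proteins that prepare peptides for MHC class I. In pancreatitis, both the injured epithelium and infiltrating leukocytes can express them, and in whole tissue a change in the number of cells of a type and a change in the RNA per cell cannot be told apart.

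Levels are counts scaled to a common library size (CPM), with sizes adjusted by the trimmed mean of M-values (TMM) over 11791 genes counted in all 22 libraries. They are given in the order of the replicate numbers, which only name the mice, and log2 differences are given with their standard error (SE). A gene was called changed at an edgeR adjusted p under 0.1 with a log2 difference of at least 1, the thresholds of the study. Library totals ran from 14229980 to 40321967 counts, and digestive enzyme transcripts took 41.0% to 42.3% of counts in the treated Pdx1-Cre Ehmt2fl/fl mice against 54.3% to 66.6% in Ehmt2+/+, 45.1% to 53.7% against 61.5% to 64.0% with P48-Cre, and 82.7% to 86.5% in YA mice of both genotypes. The deletion was not visible in whole-gene counts of Ehmt2, which ran from 27.7 to 45.8 CPM in the 5 treated Ehmt2fl/fl libraries against 42.2 to 56.8 CPM in the 6 treated Ehmt2+/+ libraries (log2 difference -0.27 ± 0.15, adjusted p = 0.29), so the genotype rests on the labels here. Sex, read from Y-linked counts, was male in both treated Pdx1-Cre Ehmt2fl/fl mice and female in all 4 of their controls, and in that pair genotype and sex cannot be told apart; the other adult groups held both sexes. All 39 members were listed in the YA and treated Pdx1-Cre groups, 38 in the P48-Cre groups (not Mx2) and 30 at PN day 10 (not Zbp1, Oas1a, Oas2, Oas3, Oasl1, Mx1, Mx2, Ifi44 or Slfn4). For 21 members, the untreated YA counts came only through the tables that also hold treated mice, so these passed the deposited filter on low values through the treated group. These were Dhx58, Zbp1, Isg15, Usp18, Oas1a, Oas2, Oas3, Oasl1, Ifit1, Ifit2, Ifit3, Mx1, Mx2, Rtp4, Plscr1, Xaf1, Ifi44, Slfn4, Gbp5, Psmb8 and Psmb9.

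The binding sites named above can be looked for in the DNA before each gene. RefSeq start sites on GRCm38.p6 gave 300 bases, 250 before and 50 after the start, for 29 of the 39 members. The core of the response element, GAAA and GAAA with 2 bases between them on either strand, was in 14 of these (48.3%), against 3.44% of all 32851 promoters of that length, and the gamma-activated letters TTCNNNGAA were in 8 (27.6%), against 8.30% of all; 4 held both and 11 held neither. A member with more than 1 promoter (Gbp3, Irf9 and Ifit2) counted if any of them matched, whereas the shares of all are per promoter. The 5 printed here belong to genes on which the results turn, with the matches of either motif in capitals. Isg15 has 3 overlapping matches of the response element within 78 bases of its start (chr4:156200769-156201068, minus strand), Ifit1 has 2 (chr19:34640639-34640938, plus strand), Oas1a has 2 that overlap and 1 gamma-activated match (chr5:120907476-120907775, minus strand), Gbp7 has 1 and 2 (chr3:142530086-142530385, plus strand), and Plscr1 has 1 gamma-activated match and none of the response element (chr9:92249944-92250243, plus strand).
Isg15: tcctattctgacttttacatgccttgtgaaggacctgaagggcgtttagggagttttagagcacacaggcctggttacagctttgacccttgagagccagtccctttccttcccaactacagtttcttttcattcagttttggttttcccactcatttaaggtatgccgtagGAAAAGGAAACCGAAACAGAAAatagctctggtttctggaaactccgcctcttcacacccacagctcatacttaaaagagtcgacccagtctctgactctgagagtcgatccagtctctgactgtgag
Ifit1: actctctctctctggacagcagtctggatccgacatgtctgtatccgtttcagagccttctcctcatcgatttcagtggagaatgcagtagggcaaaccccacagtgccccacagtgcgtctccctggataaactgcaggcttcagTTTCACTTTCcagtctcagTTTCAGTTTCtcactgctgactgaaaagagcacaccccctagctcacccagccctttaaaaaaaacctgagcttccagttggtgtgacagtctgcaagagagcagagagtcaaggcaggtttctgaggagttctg
Oas1a: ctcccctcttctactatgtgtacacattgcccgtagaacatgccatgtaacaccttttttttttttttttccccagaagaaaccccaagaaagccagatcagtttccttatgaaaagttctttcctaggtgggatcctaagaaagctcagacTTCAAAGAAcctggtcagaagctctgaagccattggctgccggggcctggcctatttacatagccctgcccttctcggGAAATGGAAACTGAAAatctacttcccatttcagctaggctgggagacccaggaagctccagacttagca
Gbp7: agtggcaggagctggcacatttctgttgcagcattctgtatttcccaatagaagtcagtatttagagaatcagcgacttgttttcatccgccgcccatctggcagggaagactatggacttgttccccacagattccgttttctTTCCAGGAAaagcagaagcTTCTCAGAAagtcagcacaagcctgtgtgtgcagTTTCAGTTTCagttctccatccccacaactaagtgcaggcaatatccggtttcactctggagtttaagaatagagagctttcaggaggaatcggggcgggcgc
Plscr1: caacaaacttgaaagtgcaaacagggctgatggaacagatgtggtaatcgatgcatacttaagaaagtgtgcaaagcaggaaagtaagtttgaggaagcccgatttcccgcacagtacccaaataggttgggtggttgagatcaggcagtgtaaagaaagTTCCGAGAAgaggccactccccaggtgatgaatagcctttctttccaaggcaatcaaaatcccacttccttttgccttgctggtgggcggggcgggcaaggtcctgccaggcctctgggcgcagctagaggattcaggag
A match of letters is a description and not a bound site.

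Most of the list was higher after caerulein than in untreated YA mice, in both genotypes. A fast and injections are given only for the treated mice, which were also another cohort. Caerulein can therefore not be told apart from fast, injection or cohort here. Of the 18 members that the table of untreated YA mice lists, 16 were higher in treated Ehmt2fl/fl than in untreated YA Ehmt2fl/fl mice and 0 were lower, where 11.1% of all genes of that table were higher, and 12 were higher in Ehmt2+/+ and 0 lower, against 6.71% of those genes. Their median log2 difference was 1.74 in Ehmt2fl/fl and 1.38 in Ehmt2+/+, against -0.01 and -0.02 over the same genes. Of the 21 members listed only through treated mice, for which the listing favours a rise, 20 were higher in Ehmt2fl/fl and 14 in Ehmt2+/+. That made 36 of 39 called higher in Ehmt2fl/fl, where 18.5% of all genes tested were higher and 14.7% lower, and 26 of 39 in Ehmt2+/+, against 10.4% and 9.61% of all genes. All 26 called in Ehmt2+/+ were also called in Ehmt2fl/fl, 10 were called in Ehmt2fl/fl alone, and Trim25, Bst2 and Gbp5 were called in neither. Of the 36, 27 were called whichever library was left out, and of the 26, 11 were: the Ehmt2+/+ count was 12 without YA Ehmt2+/+ replicate 1, and the Ehmt2fl/fl count 28 without treated Ehmt2fl/fl replicate 1, where Ifih1, Stat2, Ifit1, Ifit2, Ifit3, Rsad2, Ifi44 and Gbp7 were not called. A group left with 1 library was taken to vary like the other groups of the model. Macrophage and monocyte markers summed to 1329 to 1577 CPM in treated Ehmt2fl/fl against 97.7 to 121 CPM in YA Ehmt2fl/fl, and to 491 to 832 CPM in treated Ehmt2+/+ against 88.2 to 168 CPM in YA Ehmt2+/+; 13 of 13 and 10 of 13 of them were higher. Of neutrophil markers 6 of 6 were higher in Ehmt2fl/fl and 3 of 4 in Ehmt2+/+, of dendritic cell and MHC class II markers 7 of 7 and 0 of 9, and of plasmacytoid dendritic markers 2 of 2 and 1 of 3, while acinar markers were lower for 9 of 9 and 8 of 9. Where these totals differ, the markers tested were not the same in the 2 genotypes. A marker listed in YA mice of only 1 genotype came through treated mice, and its listing favours a rise. The dendritic cell and MHC class II markers summed to 64.8 and 445 CPM in the 2 YA Ehmt2+/+ mice. Endothelial markers summed to 81.3 to 106 CPM against 135 to 152 CPM in Ehmt2fl/fl, and to 83.9 to 122 CPM against 120 to 139 CPM in Ehmt2+/+. The part of cell number in the members' change was not tested.

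**Figure D1:**
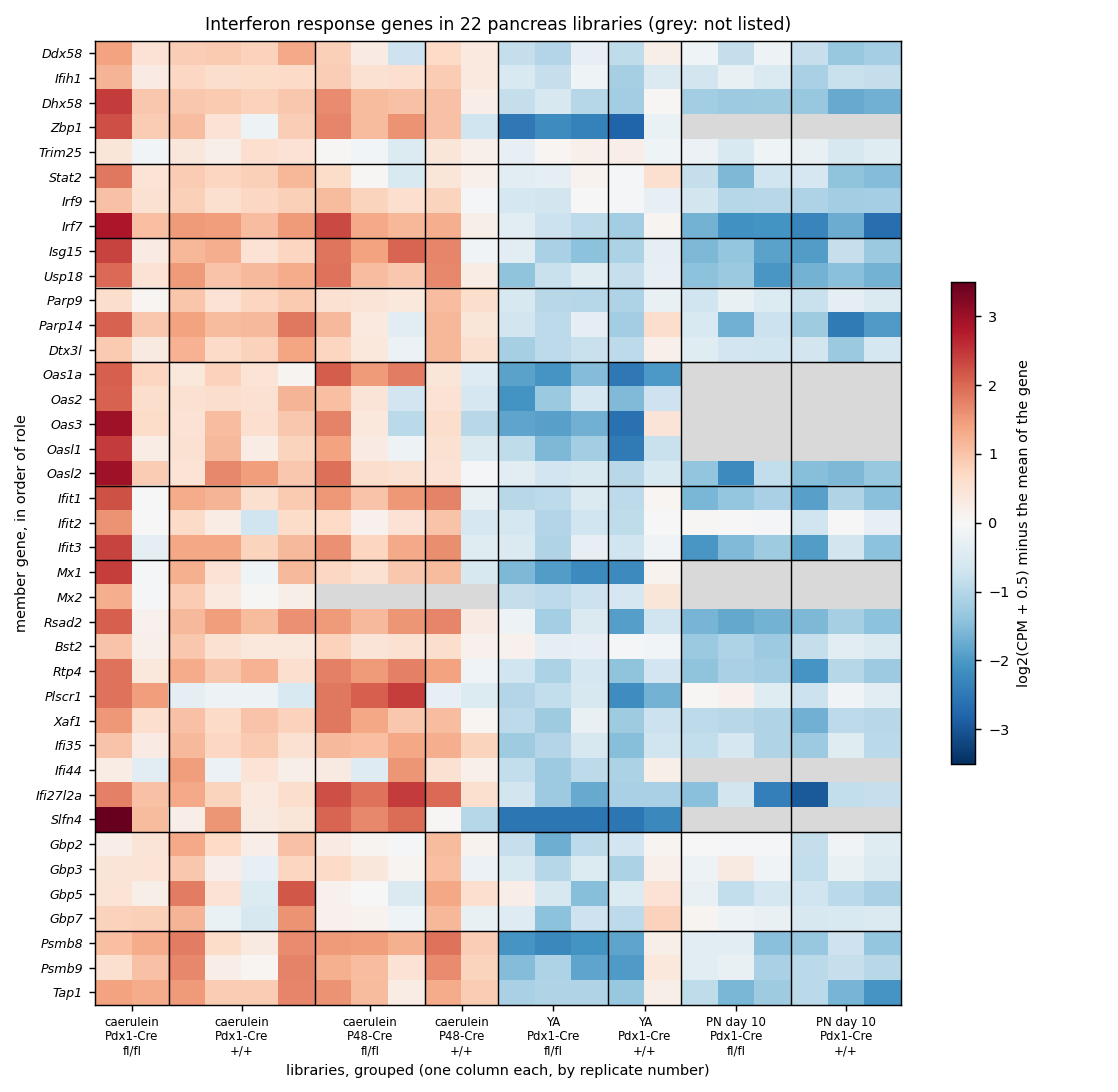
Levels of the 39 members (rows, by role) in the 22 libraries (columns, by group), coloured by log2(CPM + 0.5) minus the mean of the gene over its libraries, red above and blue below that mean, with grey for genes not listed in a group. Most rows are red in the treated libraries on the left and blue in the untreated YA and PN libraries on the right, and treated Pdx1-Cre Ehmt2fl/fl replicate 1, the first column, is the deepest red in 4 of the 5 rows of the OAS family (not Oas1a).

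The sensors of foreign nucleic acid rose except for Trim25. Ddx58 had 26.9 and 14.1 CPM in treated Pdx1-Cre Ehmt2fl/fl mice against 18.0, 18.9, 17.6 and 25.4 CPM in Ehmt2+/+, and with P48-Cre 17.9, 12.0 and 5.75 CPM in Ehmt2fl/fl against 16.1 and 12.52 CPM in Ehmt2+/+. Ddx58 in untreated YA mice was at 5.27, 4.56 and 7.86 CPM in Ehmt2fl/fl and 5.02 and 11.3 CPM in Ehmt2+/+, and in PN day 10 pups at 8.65, 5.26 and 8.63 CPM in Ehmt2fl/fl and 5.38, 3.61 and 3.99 CPM in Ehmt2+/+. Ddx58 encodes RIG-I, a cytoplasmic sensor of viral RNA ends, and every treated Pdx1-Cre library was above every untreated YA library of its genotype, with log2 differences of 1.85 in Ehmt2fl/fl and 1.27 in Ehmt2+/+. Ifih1 stood at 18.1 and 9.54 CPM in the Pdx1-Cre Ehmt2fl/fl mice given caerulein and at 13.0, 12.0, 12.2 and 12.55 CPM in their Ehmt2+/+ controls, and at 14.2, 11.3 and 11.7 CPM in P48-Cre Ehmt2fl/fl and 14.5 and 9.92 CPM in P48-Cre Ehmt2+/+. Without caerulein Ifih1 was at 5.12, 4.13 and 6.79 CPM in YA Ehmt2fl/fl against 3.17 and 5.26 CPM in YA Ehmt2+/+, and at PN day 10 at 4.71, 6.38 and 5.24 CPM in Ehmt2fl/fl against 3.20, 4.29 and 4.07 CPM in Ehmt2+/+. Ifih1, or MDA5, which senses long double-stranded RNA, rose by 1.42 in Ehmt2fl/fl, or 0.88 and not called without treated replicate 1, and by 1.54 in Ehmt2+/+. After caerulein, Dhx58 measured 15.7 and 5.27 CPM in Pdx1-Cre Ehmt2fl/fl against 5.21, 5.17, 4.76 and 5.21 CPM in Pdx1-Cre Ehmt2+/+, and 8.88, 5.98 and 5.55 CPM in P48-Cre Ehmt2fl/fl against 5.55 and 3.001 CPM in P48-Cre Ehmt2+/+. Untreated Dhx58 levels were 1.17, 1.52 and 0.983 CPM in YA Ehmt2fl/fl and 0.793 and 2.58 CPM in YA Ehmt2+/+, and 0.773, 0.747 and 0.756 CPM in PN Ehmt2fl/fl and 0.680, 0.385 and 0.434 CPM in PN Ehmt2+/+ mice. Dhx58, or LGP2, regulates both of these sensors and rose by 3.16 ± 0.49 in Ehmt2fl/fl (adjusted p = 0.00041), the most of these 3 there, and by 1.54 ± 0.50 in Ehmt2+/+ (adjusted p = 0.037). Zbp1 reached 24.9 and 9.30 CPM in treated Ehmt2fl/fl and 10.7, 7.04, 4.22 and 9.14 CPM in treated Ehmt2+/+ pancreata with Pdx1-Cre, and 17.0, 11.01 and 15.5 CPM in Ehmt2fl/fl and 10.3 and 2.80 CPM in Ehmt2+/+ with P48-Cre. Without caerulein it was at 0.439, 0.652 and 0.536 CPM in YA Ehmt2fl/fl and 0.264 and 4.03 CPM in YA Ehmt2+/+ mice. Zbp1, a sensor of left-handed nucleic acid that can trigger necroptosis, rose by 5.01 ± 0.78 in Ehmt2fl/fl and 1.77 ± 0.69 in Ehmt2+/+, where the untreated pair held both the lowest and the highest YA values and 5 of 15 alternatives did not call it. Trim25 had 41.8 and 29.0 CPM in treated Pdx1-Cre Ehmt2fl/fl mice against 40.8, 35.8, 46.4 and 44.3 CPM in Ehmt2+/+, and with P48-Cre 31.6, 29.0 and 22.1 CPM in Ehmt2fl/fl against 41.4 and 35.0 CPM in Ehmt2+/+. At baseline Trim25 showed 25.2, 32.1 and 34.8 CPM in YA Ehmt2fl/fl against 36.8 and 27.7 CPM in YA Ehmt2+/+, and 26.6, 21.1 and 27.9 CPM in PN Ehmt2fl/fl against 26.0, 20.9 and 23.1 CPM in PN Ehmt2+/+. Trim25, the ubiquitin ligase that activates RIG-I, overlapped between treated and untreated mice of both genotypes, with log2 differences of 0.26 and 0.38. Ddx58, Dhx58 and Stat2 are also in a gene list that the study chose on these samples, so their direction here is not independent of that choice.

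Among the transcription factors, Irf7 moved the most. Irf7 stood at 51.4 and 14.6 CPM in the Pdx1-Cre Ehmt2fl/fl mice given caerulein and at 20.2, 19.5, 15.05 and 20.1 CPM in their Ehmt2+/+ controls, and at 35.6, 17.7 and 15.8 CPM in P48-Cre Ehmt2fl/fl and 17.0 and 7.84 CPM in P48-Cre Ehmt2+/+. Irf7 in untreated YA mice was at 5.12, 3.80 and 3.40 CPM in Ehmt2fl/fl and 2.64 and 7.33 CPM in Ehmt2+/+, and in PN day 10 pups at 1.80, 1.18 and 1.22 CPM in Ehmt2fl/fl and 0.980, 1.69 and 0.679 CPM in Ehmt2+/+. Irf7, which amplifies the response by switching on interferon genes, rose by 3.09 ± 0.49 in Ehmt2fl/fl (adjusted p = 0.00051) and 1.87 ± 0.51 in Ehmt2+/+ (adjusted p = 0.017). After caerulein, Stat2 measured 32.6 and 12.4 CPM in Pdx1-Cre Ehmt2fl/fl against 16.5, 15.2, 16.2 and 20.4 CPM in Pdx1-Cre Ehmt2+/+, and 14.0, 9.11 and 5.86 CPM in P48-Cre Ehmt2fl/fl against 11.9 and 9.92 CPM in P48-Cre Ehmt2+/+. Without caerulein Stat2 was at 6.73, 6.95 and 9.56 CPM in YA Ehmt2fl/fl against 8.33 and 13.3 CPM in YA Ehmt2+/+, and at PN day 10 at 4.68, 2.61 and 5.27 CPM in Ehmt2fl/fl against 5.70, 2.99 and 2.72 CPM in Ehmt2+/+. Stat2 and Irf9 are parts of the complex that binds the response element, and Stat2 rose in Ehmt2fl/fl by 1.59, and its difference of 0.64 in Ehmt2+/+ was not called (adjusted p = 0.20). Without treated Ehmt2fl/fl replicate 1, the Ehmt2fl/fl difference was 0.71 and not called either. Irf9 reached 27.8 and 19.4 CPM in treated Ehmt2fl/fl and 24.2, 19.9, 22.1 and 24.1 CPM in treated Ehmt2+/+ pancreata with Pdx1-Cre, and 29.1, 23.4 and 20.3 CPM in Ehmt2fl/fl and 23.3 and 13.0 CPM in Ehmt2+/+ with P48-Cre. Untreated Irf9 levels were 8.49, 8.36 and 13.1 CPM in YA Ehmt2fl/fl and 12.6 and 10.7 CPM in YA Ehmt2+/+, and 8.32, 6.38 and 6.61 CPM in PN Ehmt2fl/fl and 6.04, 5.44 and 5.54 CPM in PN Ehmt2+/+ mice. Irf9 ran from 13.0 to 29.1 CPM over all treated mice, and its differences of 1.29 and 0.96 fell on either side of the fold minimum.

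The ISG15 system tags proteins with Isg15, a ubiquitin-like protein, and removes it again through Usp18, which also dampens signalling at the type I receptor. Isg15 had 21.2 and 4.67 CPM in treated Pdx1-Cre Ehmt2fl/fl mice against 8.89, 9.81, 5.56 and 6.58 CPM in Ehmt2+/+, and with P48-Cre 14.9, 10.6 and 16.9 CPM in Ehmt2fl/fl against 13.4 and 3.40 CPM in Ehmt2+/+. Isg15 without treatment had 2.78, 1.41 and 1.07 CPM in YA Ehmt2fl/fl and 1.45 and 2.89 CPM in YA Ehmt2+/+, and 0.920, 1.15 and 0.659 CPM in Ehmt2fl/fl and 0.6001, 1.90 and 1.22 CPM in Ehmt2+/+ pups. Isg15 rose by 3.01 ± 0.61 and 1.80 ± 0.63, and the 2 treated Pdx1-Cre Ehmt2fl/fl mice lay on either side of all 4 Ehmt2+/+ mice. Usp18 stood at 13.9 and 4.69 CPM in the Pdx1-Cre Ehmt2fl/fl mice given caerulein and at 9.76, 6.81, 7.55 and 8.47 CPM in their Ehmt2+/+ controls, and at 13.3, 7.25 and 6.47 CPM in P48-Cre Ehmt2fl/fl and 11.2 and 3.88 CPM in P48-Cre Ehmt2+/+. At baseline Usp18 showed 0.878, 1.63 and 2.23 CPM in YA Ehmt2fl/fl against 1.59 and 2.48 CPM in YA Ehmt2+/+, and 0.847, 0.996 and 0.390 CPM in PN Ehmt2fl/fl against 0.660, 0.819 and 0.652 CPM in PN Ehmt2+/+. Usp18 also had the 2 Ehmt2fl/fl mice on either side of all 4 Ehmt2+/+ mice, and rose by 2.56 and 1.98. Of the ADP-ribosyltransferases, Parp9 works with the ubiquitin ligase Dtx3l, and Parp14 adds single ADP-ribose units to its targets. After caerulein, Parp14 measured 61.4 and 28.3 CPM in Pdx1-Cre Ehmt2fl/fl against 39.01, 31.7, 32.0 and 53.1 CPM in Pdx1-Cre Ehmt2+/+, and 32.3, 18.5 and 10.7 CPM in P48-Cre Ehmt2fl/fl against 32.6 and 19.6 CPM in P48-Cre Ehmt2+/+. Parp14 in untreated YA mice was at 9.08, 7.38 and 11.2 CPM in Ehmt2fl/fl and 5.95 and 22.3 CPM in Ehmt2+/+, and in PN day 10 pups at 9.87, 4.14 and 8.29 CPM in Ehmt2fl/fl and 5.74, 2.19 and 3.29 CPM in Ehmt2+/+. Parp14 was highest in treated Pdx1-Cre Ehmt2fl/fl replicate 1 and rose by 2.34 and 1.43. Parp9 reached 17.6 and 12.0 CPM in treated Ehmt2fl/fl and 23.0, 16.4, 19.7 and 22.2 CPM in treated Ehmt2+/+ pancreata with Pdx1-Cre, and 16.8, 15.9 and 14.8 CPM in Ehmt2fl/fl and 24.7 and 17.9 CPM in Ehmt2+/+ with P48-Cre. Without caerulein Parp9 was at 7.61, 5.54 and 5.45 CPM in YA Ehmt2fl/fl against 5.16 and 9.50 CPM in YA Ehmt2+/+, and at PN day 10 at 6.92, 9.43 and 8.15 CPM in Ehmt2fl/fl against 6.501, 9.01 and 7.87 CPM in Ehmt2+/+. Parp9 rose by 1.33 and 1.45, and with Trim25 and Gbp5 it was 1 of 3 of 38 members whose P48-Cre Ehmt2fl/fl values all lay below the Ehmt2+/+ values, as they did for 16.9% of all genes. Dtx3l had 18.5 and 11.9 CPM in treated Pdx1-Cre Ehmt2fl/fl mice against 22.7, 15.5, 17.1 and 25.5 CPM in Ehmt2+/+, and with P48-Cre 16.5, 12.46 and 8.12 CPM in Ehmt2fl/fl against 22.0 and 14.3 CPM in Ehmt2+/+. Untreated Dtx3l levels were 3.95, 4.78 and 5.36 CPM in YA Ehmt2fl/fl and 4.76 and 10.8 CPM in YA Ehmt2+/+, and 7.03, 5.79 and 5.73 CPM in PN Ehmt2fl/fl and 5.86, 3.54 and 6.03 CPM in PN Ehmt2+/+ mice. Dtx3l rose by 1.74 and 1.34; it overlaps the start of Parp9 on the opposite strand, and reads there cannot be told apart because the kit does not mark strand.

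The OAS enzymes make short chains of linked adenosines from ATP on double-stranded RNA, which switch on the nuclease RNase L. Only Oasl2 of the 5 was listed for untreated YA mice in their own table, so the low untreated levels of the other 4 are tied to how they came to be listed. Oas1a stood at 27.5 and 10.6 CPM in the Pdx1-Cre Ehmt2fl/fl mice given caerulein and at 8.09, 11.02, 8.75 and 6.58 CPM in their Ehmt2+/+ controls, and at 28.0, 18.2 and 22.2 CPM in P48-Cre Ehmt2fl/fl and 8.39 and 4.28 CPM in P48-Cre Ehmt2+/+. Without caerulein it was at 1.32, 1.09 and 1.79 CPM in YA Ehmt2fl/fl and 0.661 and 1.14 CPM in YA Ehmt2+/+ mice. Oas1a rose by 3.81 ± 0.43 (adjusted p = 5.3e-05) and 3.22 ± 0.51 (adjusted p = 0.00084); it has near-identical neighbours, such as Oas1g, that can share its reads. After caerulein, Oas2 measured 13.6 and 4.69 CPM in Pdx1-Cre Ehmt2fl/fl against 4.41, 4.69, 4.36 and 7.22 CPM in Pdx1-Cre Ehmt2+/+, and 6.59, 4.15 and 1.63 CPM in P48-Cre Ehmt2fl/fl against 4.30 and 1.76 CPM in P48-Cre Ehmt2+/+. Untreated YA levels of Oas2 were 0.293, 0.869 and 1.70 CPM in Ehmt2fl/fl and 0.661 and 1.55 CPM in Ehmt2+/+. Oas2 lay between 4.36 and 7.22 CPM in 5 of the 6 treated Pdx1-Cre mice, with Ehmt2fl/fl replicate 1 above them, and rose by 3.22 and 2.17. Oas3 reached 29.8 and 5.57 CPM in treated Ehmt2fl/fl and 5.01, 7.61, 5.36 and 6.94 CPM in treated Ehmt2+/+ pancreata with Pdx1-Cre, and 12.3, 4.53 and 1.52 CPM in Ehmt2fl/fl and 5.44 and 1.48 CPM in Ehmt2+/+ with P48-Cre. Without caerulein it was at 0.586, 0.543 and 0.715 CPM in YA Ehmt2fl/fl and 0.132 and 4.75 CPM in YA Ehmt2+/+ mice. Oas3 rose in Ehmt2fl/fl by 4.89 ± 0.91, while in Ehmt2+/+ the untreated replicate 2 was close to the treated mice and the difference of 1.27 ± 0.80 was not called (adjusted p = 0.26). Oasl1 had 14.8 and 2.85 CPM in treated Pdx1-Cre Ehmt2fl/fl mice against 3.54, 5.67, 2.85 and 4.29 CPM in Ehmt2+/+, and with P48-Cre 6.87, 2.92 and 1.96 CPM in Ehmt2fl/fl against 3.58 and 1.48 CPM in Ehmt2+/+. Untreated YA levels of Oasl1 were 1.02, 0.434 and 0.715 CPM in Ehmt2fl/fl and 0 and 1.14 CPM in Ehmt2+/+. Oasl1, which in mice restrains Irf7 translation, rose by 3.70 and 2.71. Oasl2 stood at 54.5 and 12.53 CPM in the Pdx1-Cre Ehmt2fl/fl mice given caerulein and at 9.29, 22.1, 18.9 and 12.9 CPM in their Ehmt2+/+ controls, and at 25.9, 10.1 and 9.67 CPM in P48-Cre Ehmt2fl/fl and 9.52 and 6.20 CPM in P48-Cre Ehmt2+/+. Untreated Oasl2 levels were 4.83, 3.91 and 4.20 CPM in YA Ehmt2fl/fl and 3.04 and 4.34 CPM in YA Ehmt2+/+, and 2.21, 0.996 and 3.34 CPM in PN Ehmt2fl/fl and 2.00, 1.85 and 2.28 CPM in PN Ehmt2+/+ mice. Oasl2, which carries ubiquitin-like domains beside its OAS fold, rose by 3.03 and 2.09.

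The IFIT proteins bind foreign RNA, Ifit1 by recognising an unmethylated cap and Ifit2 and Ifit3 as its partners. After caerulein, Ifit1 measured 13.4 and 2.50 CPM in Pdx1-Cre Ehmt2fl/fl against 6.85, 6.29, 3.88 and 5.09 CPM in Pdx1-Cre Ehmt2+/+, and 7.96, 5.44 and 8.04 CPM in P48-Cre Ehmt2fl/fl against 9.34 and 1.96 CPM in P48-Cre Ehmt2+/+. Ifit1 without treatment had 1.02, 1.09 and 1.61 CPM in YA Ehmt2fl/fl and 1.06 and 2.58 CPM in YA Ehmt2+/+, and 0.479, 0.653 and 0.854 CPM in Ehmt2fl/fl and 0.300, 0.939 and 0.570 CPM in Ehmt2+/+ pups. Ifit1 rose by 2.71 and 1.56, with all 4 treated Pdx1-Cre Ehmt2+/+ mice between the 2 treated Pdx1-Cre Ehmt2fl/fl mice. Ifit2 reached 11.8 and 3.64 CPM in treated Ehmt2fl/fl and 6.02, 4.46, 2.02 and 6.00 CPM in treated Ehmt2+/+ pancreata with Pdx1-Cre, and 6.26, 4.12 and 5.36 CPM in Ehmt2fl/fl and 7.77 and 2.24 CPM in Ehmt2+/+ with P48-Cre. At baseline Ifit2 showed 2.20, 1.52 and 2.06 CPM in YA Ehmt2fl/fl against 1.72 and 3.61 CPM in YA Ehmt2+/+, and 3.76, 3.67 and 3.54 CPM in PN Ehmt2fl/fl against 2.04, 3.56 and 2.88 CPM in PN Ehmt2+/+. Ifit2 was called in Ehmt2fl/fl at 2.07 and not in Ehmt2+/+ at 0.76, where treated replicate 3 fell inside the untreated range. Ifit3 had 22.2 and 3.03 CPM in treated Pdx1-Cre Ehmt2fl/fl mice against 10.8, 10.8, 7.07 and 9.23 CPM in Ehmt2+/+, and with P48-Cre 12.9, 6.92 and 10.6 CPM in Ehmt2fl/fl against 13.2 and 2.84 CPM in Ehmt2+/+. Ifit3 in untreated YA mice was at 2.63, 1.63 and 3.13 CPM in Ehmt2fl/fl and 2.25 and 3.61 CPM in Ehmt2+/+, and in PN day 10 pups at 0.589, 1.03 and 1.39 CPM in Ehmt2fl/fl and 0.640, 2.36 and 1.14 CPM in Ehmt2+/+. Ifit3 rose by 2.41 and 1.67, although treated Ehmt2fl/fl replicate 2 overlapped the untreated mice; it has a near-identical neighbour, Ifit3b. Without treated Ehmt2fl/fl replicate 1, the Ehmt2fl/fl differences were 1.03 for Ifit1, 0.98 for Ifit2 and 0.34 for Ifit3, and none was called. In Ehmt2+/+, the call of Ifit1 was lost in 8 of 15 alternatives and that of Ifit3 in 7 of 15, 5 of each by leaving out a library.

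**Figure D2:**
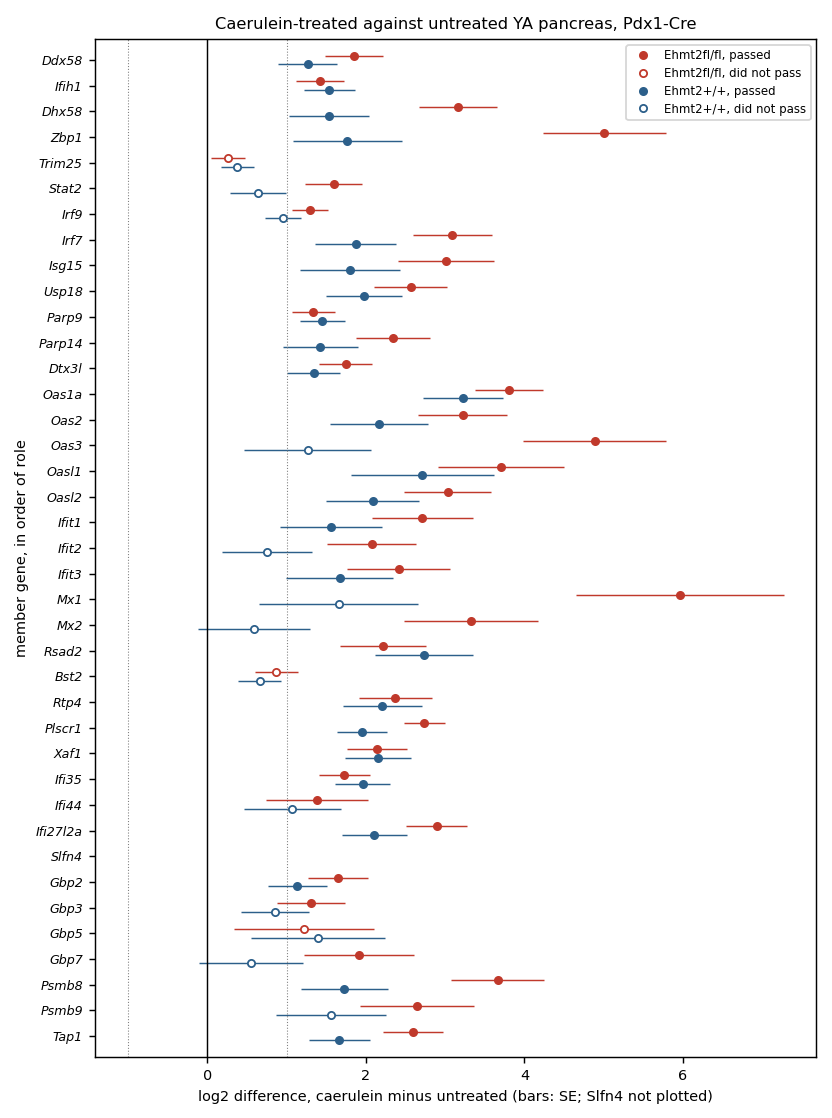
Log2 difference of caerulein-treated over untreated YA Pdx1-Cre mice for each member but Slfn4, in Ehmt2fl/fl and in Ehmt2+/+, with bars for the SE and filled points for genes called. All 38 points of each genotype lie above 0, and Zbp1, Mx1, Oas3 and Mx2 lie furthest apart between the genotypes.

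Plscr1, Slfn4 and the Mx genes are antiviral or interferon-induced genes of other families. All were listed for YA mice only through treated mice, which ties their low untreated YA levels to that listing. Plscr1 stood at 21.0 and 15.5 CPM in the Pdx1-Cre Ehmt2fl/fl mice given caerulein and at 4.11, 4.66, 4.62 and 3.53 CPM in their Ehmt2+/+ controls, and at 20.3, 24.2 and 30.4 CPM in P48-Cre Ehmt2fl/fl and 4.23 and 3.68 CPM in P48-Cre Ehmt2+/+. Without caerulein Plscr1 was at 2.34, 2.71 and 3.40 CPM in YA Ehmt2fl/fl against 0.793 and 1.34 CPM in YA Ehmt2+/+, and at PN day 10 at 5.45, 5.91 and 3.81 CPM in Ehmt2fl/fl against 2.92, 4.82 and 3.99 CPM in Ehmt2+/+. Plscr1, a phospholipid scramblase that interferon induces, had all 5 treated Ehmt2fl/fl libraries above all 6 treated Ehmt2+/+ libraries, and it rose with caerulein by 2.74 ± 0.25 in Ehmt2fl/fl (adjusted p = 2.1e-05) and 1.95 ± 0.31 in Ehmt2+/+ (adjusted p = 0.00092). After caerulein, Slfn4 measured 46.0 and 5.77 CPM in Pdx1-Cre Ehmt2fl/fl against 2.91, 8.02, 3.13 and 3.35 CPM in Pdx1-Cre Ehmt2+/+, and 11.5, 8.75 and 10.8 CPM in P48-Cre Ehmt2fl/fl against 2.48 and 0.960 CPM in P48-Cre Ehmt2+/+. In YA pancreas Slfn4 had 0 CPM in all 3 mice in Ehmt2fl/fl against 0 and 0.103 CPM in Ehmt2+/+. Slfn4, a schlafen gene known from myeloid cells, had 0 counts in the 3 untreated Ehmt2fl/fl mice and 1 count in 1 untreated Ehmt2+/+ mouse. Against a floor of 3 counts over the group, it was at least 228-fold higher in treated Ehmt2fl/fl, or at least 52.4-fold in replicate 2 alone. Its ratio in Ehmt2+/+, resting on that 1 count, was 80.2 with an exact counting interval of 14.3 to 3171 that covers counting error only. Mx1 reached 12.0 and 1.80 CPM in treated Ehmt2fl/fl and 5.01, 2.83, 1.62 and 4.69 CPM in treated Ehmt2+/+ pancreata with Pdx1-Cre, and 3.41, 2.90 and 4.01 CPM in Ehmt2fl/fl and 4.52 and 1.08 CPM in Ehmt2+/+ with P48-Cre. Without caerulein it was at 0.293, 0.109 and 0 CPM in YA Ehmt2fl/fl and 0 and 2.06 CPM in YA Ehmt2+/+ mice. Mx1 and Mx2 belong to the dynamin-like GTPases, a family that can trap viral particles. Only RNA was read, and whether these C57Bl/6 mice make working Mx proteins was not tested. Mx1 had 3 counts in all over the untreated Ehmt2fl/fl mice, giving a ratio of treated over untreated of 61.0 (counting interval 20.8 to 297), or 16.4 with treated replicate 2 alone. The log2 difference of Mx1 in Ehmt2+/+, 1.66 ± 1.01, was not called (adjusted p = 0.24). Mx2 had 2.27 and 0.628 CPM in treated Pdx1-Cre Ehmt2fl/fl mice against 1.64, 0.960, 0.684 and 0.822 CPM in Ehmt2+/+, and was not listed with P48-Cre. Untreated YA levels of Mx2 were 0.146, 0.109 and 0.179 CPM in Ehmt2fl/fl and 0.264 and 1.03 CPM in Ehmt2+/+. Mx2 was called in Ehmt2fl/fl at 3.32 ± 0.85, a difference that rests on 1, 1 and 2 counts in the untreated mice. It overlapped between treated and untreated Ehmt2+/+ mice (0.58 ± 0.71).

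Rsad2 stood at 24.4 and 6.01 CPM in the Pdx1-Cre Ehmt2fl/fl mice given caerulein and at 12.4, 15.7, 12.1 and 17.3 CPM in their Ehmt2+/+ controls, and at 16.1, 12.46 and 16.6 CPM in P48-Cre Ehmt2fl/fl and 18.8 and 6.72 CPM in P48-Cre Ehmt2+/+. Rsad2 in untreated YA mice was at 4.68, 2.06 and 3.66 CPM in Ehmt2fl/fl and 1.06 and 3.10 CPM in Ehmt2+/+, and in PN day 10 pups at 1.40, 1.21 and 1.37 CPM in Ehmt2fl/fl and 1.48, 2.12 and 1.66 CPM in Ehmt2+/+. Rsad2, or viperin, makes a nucleotide that ends viral RNA chains, and rose by 2.22 and 2.73, the Ehmt2fl/fl difference being 0.86 and not called without treated replicate 1. After caerulein, Bst2 measured 40.5 and 22.8 CPM in Pdx1-Cre Ehmt2fl/fl against 38.8, 29.4, 25.9 and 25.9 CPM in Pdx1-Cre Ehmt2+/+, and 35.6, 27.3 and 29.2 CPM in P48-Cre Ehmt2fl/fl against 30.8 and 22.3 CPM in P48-Cre Ehmt2+/+. Without caerulein Bst2 was at 22.4, 15.7 and 16.4 CPM in YA Ehmt2fl/fl against 19.3 and 18.8 CPM in YA Ehmt2+/+, and at PN day 10 at 7.88, 9.15 and 8.02 CPM in Ehmt2fl/fl against 10.9, 15.3 and 13.9 CPM in Ehmt2+/+. Bst2, or tetherin, which holds budding virus at the cell surface, was already at 15.7 CPM or more in every YA mouse, and its differences of 0.87 and 0.66 stayed under the fold minimum in spite of adjusted p = 0.021 and 0.087. Rtp4 reached 20.3 and 6.57 CPM in treated Ehmt2fl/fl and 13.0, 10.1, 12.3 and 7.74 CPM in treated Ehmt2+/+ pancreata with Pdx1-Cre, and 18.1, 14.96 and 18.1 CPM in Ehmt2fl/fl and 14.0 and 4.56 CPM in Ehmt2+/+ with P48-Cre. Untreated Rtp4 levels were 2.93, 2.06 and 3.13 CPM in YA Ehmt2fl/fl and 1.59 and 2.99 CPM in YA Ehmt2+/+, and 1.58, 1.99 and 1.88 CPM in PN Ehmt2fl/fl and 0.820, 2.26 and 1.79 CPM in PN Ehmt2+/+ mice. Rtp4, a receptor chaperone, rose by 2.37 and 2.21. Xaf1 had 10.8 and 5.51 CPM in treated Pdx1-Cre Ehmt2fl/fl mice against 7.62, 5.85, 7.55 and 6.55 CPM in Ehmt2+/+, and with P48-Cre 14.0, 9.64 and 7.16 CPM in Ehmt2fl/fl against 7.92 and 3.72 CPM in Ehmt2+/+. Xaf1 without treatment had 1.61, 1.19 and 2.86 CPM in YA Ehmt2fl/fl and 1.19 and 1.86 CPM in YA Ehmt2+/+, and 1.62, 1.52 and 1.44 CPM in Ehmt2fl/fl and 0.740, 1.64 and 1.55 CPM in Ehmt2+/+ pups. Xaf1, a binding partner of the apoptosis inhibitor XIAP, rose by 2.14 and 2.15, the closest pair of estimates among the 39. Ifi35 stood at 20.5 and 12.4 CPM in the Pdx1-Cre Ehmt2fl/fl mice given caerulein and at 22.6, 17.1, 19.7 and 14.9 CPM in their Ehmt2+/+ controls, and at 22.9, 21.5 and 26.4 CPM in P48-Cre Ehmt2fl/fl and 24.9 and 17.5 CPM in P48-Cre Ehmt2+/+. At baseline Ifi35 showed 3.95, 4.67 and 6.70 CPM in YA Ehmt2fl/fl against 3.30 and 6.09 CPM in YA Ehmt2+/+, and 5.30, 6.503 and 4.56 CPM in PN Ehmt2fl/fl against 3.88, 7.42 and 5.02 CPM in PN Ehmt2+/+. Ifi35, an interferon-induced leucine zipper protein, overlapped between the genotypes after caerulein and rose by 1.73 and 1.96. After caerulein, Ifi27l2a measured 28.0 and 16.6 CPM in Pdx1-Cre Ehmt2fl/fl against 20.6, 13.9, 10.1 and 12.3 CPM in Pdx1-Cre Ehmt2+/+, and 39.7, 30.5 and 45.2 CPM in P48-Cre Ehmt2fl/fl against 32.5 and 11.9 CPM in P48-Cre Ehmt2+/+. Ifi27l2a in untreated YA mice was at 4.83, 2.93 and 1.97 CPM in Ehmt2fl/fl and 3.30 and 3.30 CPM in Ehmt2+/+, and in PN day 10 pups at 2.54, 4.89 and 1.10 CPM in Ehmt2fl/fl and 0.580, 4.07 and 4.26 CPM in Ehmt2+/+. Ifi27l2a, a small mitochondrial protein, had the highest level per kb of transcript of all members in treated mice (51.3 CPM per kb, ahead of Bst2 at 33.1 and Isg15 at 15 CPM per kb), and rose by 2.89 ± 0.38 and 2.10 ± 0.41. Ifi44 reached 2.81 and 1.63 CPM in treated Ehmt2fl/fl and 7.22, 1.92, 3.36 and 2.68 CPM in treated Ehmt2+/+ pancreata with Pdx1-Cre, and 2.94, 1.53 and 7.65 CPM in Ehmt2fl/fl and 3.502 and 2.64 CPM in Ehmt2+/+ with P48-Cre. Untreated YA levels of Ifi44 were 1.02, 0.652 and 0.983 CPM in Ehmt2fl/fl and 0.793 and 2.68 CPM in Ehmt2+/+. Ifi44 was called in Ehmt2fl/fl at 1.39 ± 0.64 with adjusted p = 0.099, just inside the threshold and lost in 8 of 14 alternatives, and not in Ehmt2+/+ (1.07 ± 0.61).

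The guanylate binding proteins, GTPases that attack vacuoles of intracellular microbes, and the antigen processing genes followed a different order of libraries from the OAS family in the treated Pdx1-Cre mice. Gbp2 had 8.66 and 10.01 CPM in treated Pdx1-Cre Ehmt2fl/fl mice against 18.8, 12.0, 8.52 and 15.2 CPM in Ehmt2+/+, and with P48-Cre 8.95, 7.76 and 6.96 CPM in Ehmt2fl/fl against 16.1 and 7.96 CPM in Ehmt2+/+. Untreated Gbp2 levels were 3.95, 1.85 and 3.57 CPM in YA Ehmt2fl/fl and 4.36 and 7.85 CPM in YA Ehmt2+/+, and 7.29, 7.03 and 6.98 CPM in PN Ehmt2fl/fl and 3.82, 6.62 and 5.24 CPM in PN Ehmt2+/+ mice. Gbp2 rose by 1.65 and 1.14, and its highest treated Pdx1-Cre values were those of Ehmt2+/+ replicates 1 and 4. Gbp3 stood at 7.20 and 7.25 CPM in the Pdx1-Cre Ehmt2fl/fl mice given caerulein and at 10.2, 6.08, 4.10 and 8.98 CPM in their Ehmt2+/+ controls, and at 8.45, 6.82 and 5.44 CPM in P48-Cre Ehmt2fl/fl and 11.1 and 4.36 CPM in P48-Cre Ehmt2+/+. Gbp3 without treatment had 3.37, 2.28 and 3.48 CPM in YA Ehmt2fl/fl and 2.12 and 5.78 CPM in YA Ehmt2+/+, and 4.49, 6.44 and 4.61 CPM in Ehmt2fl/fl and 2.60, 4.21 and 3.48 CPM in Ehmt2+/+ pups. Gbp3 rose in Ehmt2fl/fl by 1.31 and was not called in Ehmt2+/+ (0.85). After caerulein, Gbp7 measured 8.09 and 8.25 CPM in Pdx1-Cre Ehmt2fl/fl against 10.7, 3.73, 2.85 and 14.0 CPM in Pdx1-Cre Ehmt2+/+, and 4.98, 4.83 and 3.896 CPM in P48-Cre Ehmt2fl/fl against 10.5 and 3.64 CPM in P48-Cre Ehmt2+/+. At baseline Gbp7 showed 3.07, 1.30 and 2.50 CPM in YA Ehmt2fl/fl against 2.12 and 8.16 CPM in YA Ehmt2+/+, and 4.79, 3.83 and 3.61 CPM in PN Ehmt2fl/fl against 2.86, 2.89 and 2.96 CPM in PN Ehmt2+/+. Gbp7 was called in Ehmt2fl/fl at 1.91 ± 0.70 and not in Ehmt2+/+ (0.55 ± 0.66), where treated replicates 2 and 3 fell below untreated replicate 2. The Ehmt2fl/fl call of Gbp7 was lost in 5 of 14 alternatives, with sex as a covariate and without any of 4 libraries (adjusted p up to 0.15). Gbp5, at 1.02 to 2.53 CPM in the 5 treated Ehmt2fl/fl libraries against 1.05 to 9.26 CPM in the 6 treated Ehmt2+/+ libraries, was not called in either genotype.

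Psmb8 reached 22.8 and 27.3 CPM in treated Ehmt2fl/fl and 38.0, 17.0, 13.5 and 34.5 CPM in treated Ehmt2+/+ pancreata with Pdx1-Cre, and 30.8, 30.6 and 25.9 CPM in Ehmt2fl/fl and 41.5 and 19.97 CPM in Ehmt2+/+ with P48-Cre. Psmb8 in untreated YA mice was at 2.20, 1.85 and 2.14 CPM in Ehmt2fl/fl and 2.64 and 12.4 CPM in Ehmt2+/+, and in PN day 10 pups at 8.10, 8.18 and 3.54 CPM in Ehmt2fl/fl and 3.94, 6.24 and 3.86 CPM in Ehmt2+/+. Psmb8 and Psmb9 are catalytic subunits of the immunoproteasome, which cuts peptides for MHC class I, and Psmb8 rose by 3.66 ± 0.59 in Ehmt2fl/fl (adjusted p = 0.00054) and 1.73 ± 0.55 in Ehmt2+/+ (adjusted p = 0.034). Psmb9 had 7.83 and 10.9 CPM in treated Pdx1-Cre Ehmt2fl/fl mice against 17.7, 6.17, 5.44 and 18.5 CPM in Ehmt2+/+, and with P48-Cre 12.8, 11.4 and 7.60 CPM in Ehmt2fl/fl against 17.2 and 9.16 CPM in Ehmt2+/+. Without caerulein Psmb9 was at 1.46, 2.17 and 1.07 CPM in YA Ehmt2fl/fl against 0.925 and 6.81 CPM in YA Ehmt2+/+, and at PN day 10 at 3.87, 4.20 and 2.07 CPM in Ehmt2fl/fl against 2.42, 2.75 and 2.39 CPM in Ehmt2+/+. Psmb9 rose in Ehmt2fl/fl by 2.65, and its difference of 1.56 in Ehmt2+/+ was not called (adjusted p = 0.11), and treated replicates 2 and 3 lay below untreated replicate 2. Tap1 stood at 33.2 and 31.0 CPM in the Pdx1-Cre Ehmt2fl/fl mice given caerulein and at 35.1, 23.1, 23.3 and 41.2 CPM in their Ehmt2+/+ controls, and at 37.4, 27.2 and 14.7 CPM in P48-Cre Ehmt2fl/fl and 30.9 and 23.1 CPM in P48-Cre Ehmt2+/+. Untreated Tap1 levels were 5.27, 5.65 and 5.63 CPM in YA Ehmt2fl/fl and 4.63 and 14.2 CPM in YA Ehmt2+/+, and 6.37, 3.70 and 4.85 CPM in PN Ehmt2fl/fl and 6.12, 3.64 and 2.55 CPM in PN Ehmt2+/+ mice. Tap1, a chain of the transporter that carries peptides into the endoplasmic reticulum, rose by 2.60 ± 0.38 and 1.66 ± 0.38; its start overlaps that of Psmb9 on the other strand, and reads in that stretch cannot be told apart.

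The size of the caerulein response did not pass the test of a difference between genotypes for any member. In this contrast the treated mice were all male in Ehmt2fl/fl and all female in Ehmt2+/+, so it also carries a difference of sex. The log2 difference was larger in Ehmt2fl/fl for 32 members and larger in Ehmt2+/+ for 7, with a median difference of differences of 0.79, but edgeR called 0 of 39, against 1.25% of all genes tested, and 6 had an unadjusted p under 0.05; DESeq2 called 1, Zbp1. Apart from Slfn4, at or near 0 counts in untreated mice, the widest estimates were 4.30 ± 1.83 for Mx1, 3.62 ± 1.23 for Oas3 and 3.24 ± 1.07 for Zbp1 (adjusted p = 0.32, 0.23 and 0.22). These 3 also rested on few untreated counts. In YA Ehmt2fl/fl the counts were 2, 1 and 0 for Mx1, 4, 5 and 8 for Oas3, and 3, 6 and 6 for Zbp1. In YA Ehmt2+/+ they were 0 and 20, 1 and 46, and 2 and 39, with replicate 2 the higher for each. The median rested on single libraries: it was 0.02 without YA Ehmt2+/+ replicate 2 and 0.04 without treated Ehmt2fl/fl replicate 1. Without YA Ehmt2+/+ replicate 1, edgeR called 3 members, Psmb8, Zbp1 and Oas3.

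Among treated mice, Plscr1 was the member that differed between the genotypes with either driver. With Pdx1-Cre, Plscr1 (ENSMUSG00000032369.13, chr9:92249750-92272278 on the plus strand of GRCm38) was higher in Ehmt2fl/fl by 2.12 ± 0.21 on the log2 scale (adjusted p = 0.0011), and with P48-Cre by 2.69 ± 0.26 (adjusted p = 0.0017). Over both drivers the difference was 2.39 ± 0.18 (adjusted p = 2.9e-05), and it was higher in 5 of 5 Ehmt2fl/fl libraries than in any of the 6 Ehmt2+/+ libraries. No other of the 38 members tested had all 5 above all 6, where 5.94% of all genes had every Ehmt2fl/fl library above every Ehmt2+/+ library. Within a single driver such separation was common: 18% of all genes and 2 of 39 members (Dhx58 and Plscr1) had it with Pdx1-Cre, and 18.9% of all genes and 7 of 38 members (these, Slfn4, Zbp1, Oasl2, Rtp4 and Oas1a) with P48-Cre. Slfn4 (ENSMUSG00000000204.16, chr11:83175186-83190216 on the plus strand of GRCm38) was called with Pdx1-Cre at 2.58 ± 0.68 (adjusted p = 0.054), and its difference of 2.63 ± 0.86 with P48-Cre was not (adjusted p = 0.13). Oas1a (ENSMUSG00000052776.10, chr5:120896256-120907521 on the minus strand of GRCm38) was called with P48-Cre at 1.89 ± 0.46 (adjusted p = 0.050), and its difference of 1.16 ± 0.39 with Pdx1-Cre was not (adjusted p = 0.11).

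Over both drivers 4 of 38 members were higher in treated Ehmt2fl/fl than in treated Ehmt2+/+ and 0 were lower, against 5.32% higher and 2.76% lower of all genes tested, and 11 had an unadjusted p under 0.05. These were Plscr1, Slfn4 (2.60 ± 0.51, adjusted p = 0.0057), Oas1a (1.5 ± 0.31, adjusted p = 0.0077) and Zbp1 (1.18 ± 0.37, adjusted p = 0.053). Zbp1 was no longer called without treated Pdx1-Cre Ehmt2fl/fl replicate 1, nor without P48-Cre Ehmt2+/+ replicate 2. The count was 8 without treated Pdx1-Cre Ehmt2fl/fl replicate 2, 6 when P48-Cre Ehmt2+/+ replicate 1, or P48-Cre Ehmt2fl/fl replicate 3, was left out, and 8 with sex as a covariate, which added Dhx58, Irf7, Xaf1 and Ifi27l2a. With Pdx1-Cre alone, 2 of 39 were higher and 0 lower (4.22% and 2.87% of all genes), and with P48-Cre alone 2 of 38 and 0 (4.01% and 1.95%). Slfn4 lost its call with Pdx1-Cre when Ehmt2+/+ replicate 1 or 3, or Ehmt2fl/fl replicate 1, was left out, so that 1 member stayed called, Dhx58 and Oas1a joined without Ehmt2fl/fl replicate 2, for 4 in all, and Oas1a lost its call with P48-Cre when Ehmt2+/+ replicate 2, or Ehmt2fl/fl replicate 1, was left out. The median log2 difference was 0.26 with Pdx1-Cre, 0.32 with P48-Cre and 0.26 over both. The genotype difference itself was compared between drivers, and 0 of 38 members and 0% of all genes were called to differ, with 0 members at an unadjusted p under 0.05. By role, the median over both drivers was 1.05 in the OAS family, 0.52 in the ISG15 system, 0.47 in the IFIT family, -0.02 in antigen processing, -0.38 in the guanylate binding proteins and -0.41 in the ADP-ribosyltransferases.

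**Figure D3:**
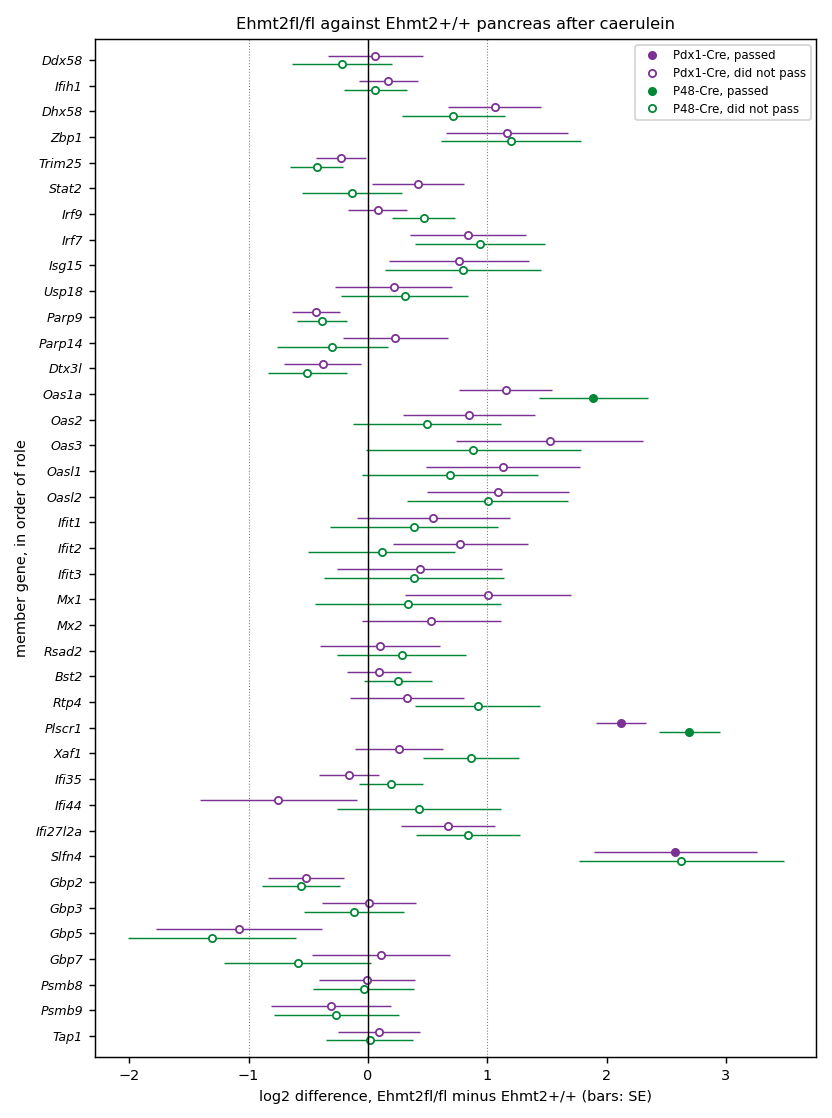
Log2 difference of Ehmt2fl/fl over Ehmt2+/+ after caerulein for each member, with Pdx1-Cre in purple and P48-Cre in green, bars for the SE and filled points for genes called. Plscr1 is called with both drivers, Slfn4 with Pdx1-Cre and Oas1a with P48-Cre, and all other points are open.

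The libraries of single groups differed by more than most genotype differences. Treated Pdx1-Cre Ehmt2fl/fl replicate 1 was above replicate 2 in 34 of 39 members and at least 2 times as high in 20, with a median ratio of 2.17. P48-Cre Ehmt2+/+ replicate 1 was above replicate 2 in 38 of 38, with a median ratio of 2.05. The geometric mean CPM of the 5 OAS genes was 24.7 and 6.37 in treated Pdx1-Cre Ehmt2fl/fl against 5.71, 8.74, 6.53 and 7.15 in Ehmt2+/+, and 13.3, 6.42 and 4.26 against 5.85 and 2.60 with P48-Cre. For this family as a whole, 1 of 2 Pdx1-Cre and 2 of 3 P48-Cre Ehmt2fl/fl libraries were above all treated Ehmt2+/+ libraries of their driver. The median difference over the members with Pdx1-Cre was -0.39 without Ehmt2fl/fl replicate 1 and 0.80 without replicate 2, and with P48-Cre it was 1.20 without Ehmt2+/+ replicate 1 and -0.17 without replicate 2. Plscr1 was called in each of these fits.

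The Gbp and antigen processing genes sorted the treated Pdx1-Cre libraries in another way. The geometric mean of the 3 antigen processing genes was 18.2 and 21.0 CPM in treated Pdx1-Cre Ehmt2fl/fl against 28.8, 13.5, 12.1 and 29.8 CPM in Ehmt2+/+, and that of the 4 Gbp genes was 6.04 and 6.01 against 10.98, 5.22, 3.33 and 11.6 CPM. With P48-Cre the order within each genotype was that of the OAS family, at 24.6, 21.2 and 14.3 against 28.1 and 16.2 CPM for antigen processing and 5.28, 4.63 and 3.65 against 9.93 and 4.36 CPM for the Gbp genes. The 2 high Ehmt2+/+ libraries, replicates 1 and 4, were also those with the most lymphocyte transcripts: the 7 T and NK cell markers summed to 0.680 and 40.8 CPM in Ehmt2fl/fl against 57.6, 2.58, 0.997 and 82.9 CPM in Ehmt2+/+, and the 9 dendritic cell and MHC class II markers to 217 and 638 CPM against 698, 163, 86.6 and 926 CPM. Neutrophil markers went the other way, at 67.7 and 41.4 CPM in Ehmt2fl/fl against 11.6, 21.0, 14.3 and 5.85 CPM in Ehmt2+/+, and macrophage and monocyte markers summed to 1107 to 2050 CPM in P48-Cre Ehmt2fl/fl against 403 to 660 CPM in Ehmt2+/+. Over both drivers, 10 of 13 macrophage and monocyte markers and 5 of 6 neutrophil markers were higher in Ehmt2fl/fl, 0 of the T, NK, B, dendritic or endothelial markers were called, and 6 of 9 acinar markers were lower. The part of these cells in the levels of Plscr1, Slfn4 and the other members was not tested.

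**Figure D4:**
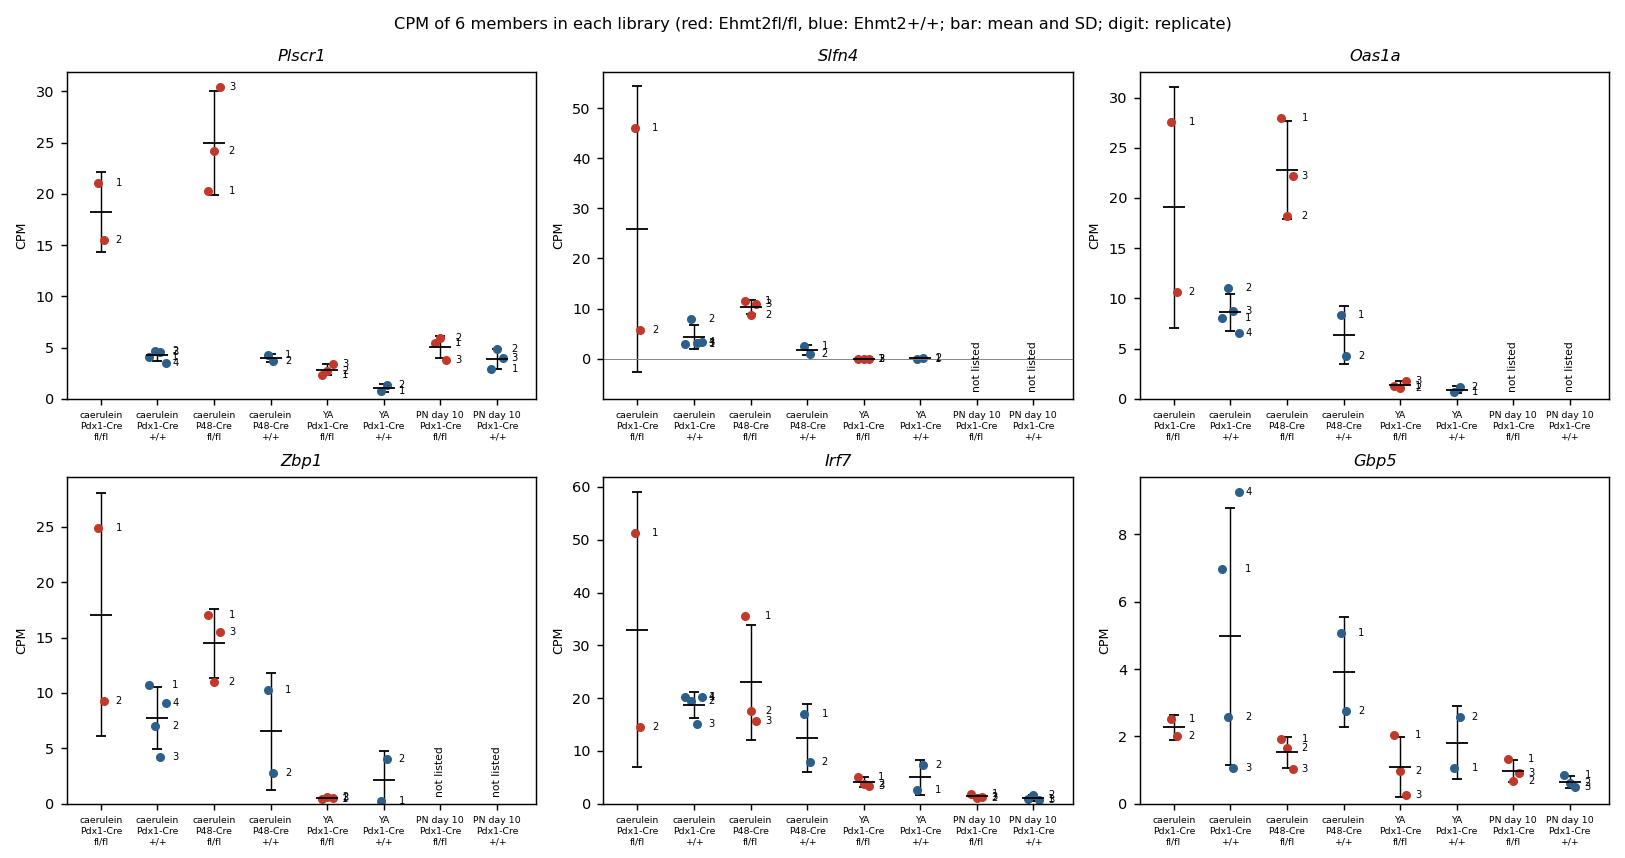
CPM of Plscr1, Slfn4, Oas1a, Zbp1, Irf7 and Gbp5 in each library, by group, with Ehmt2fl/fl in red left of Ehmt2+/+ in blue, and bars for the mean and SD of the group. Plscr1 separates the genotypes in both sets of treated mice, whereas each of the other 5 overlaps between the genotypes in the treated Pdx1-Cre mice.

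**Figure D5:**
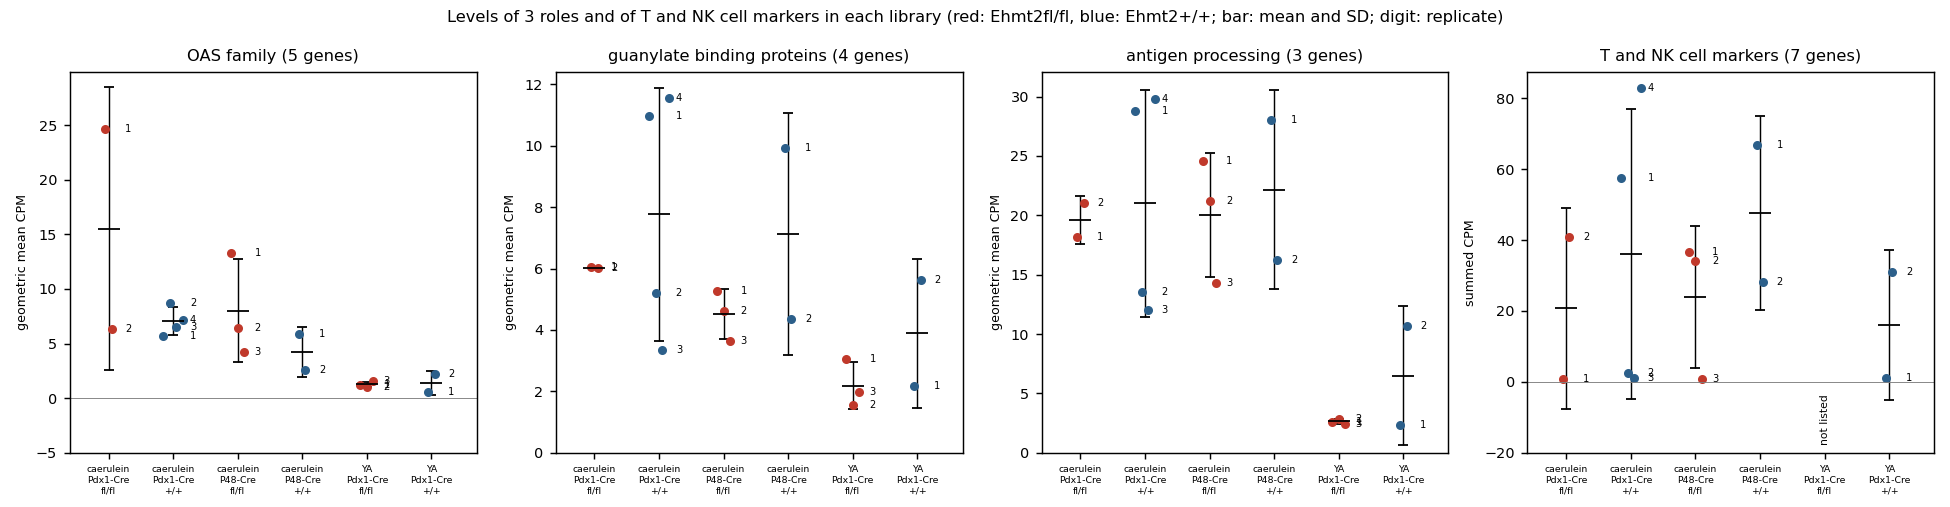
Geometric mean CPM of the OAS family, the guanylate binding proteins and the antigen processing genes, and summed CPM of T and NK cell markers, in each library of the treated and untreated YA groups, with Ehmt2fl/fl in red left of Ehmt2+/+ in blue, and bars for the mean and SD. The OAS level is highest in treated Pdx1-Cre Ehmt2fl/fl replicate 1 at 24.7 CPM, and the antigen processing level is highest in treated Pdx1-Cre Ehmt2+/+ replicate 4 at 29.8 CPM.

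Without caerulein, no member was called between the genotypes. In YA mice 0 of 33 tested members passed, against 0.328% of all genes, and 4 had an unadjusted p under 0.05; DESeq2 called 1, Psmb8. The median was -0.35 and 8 of 33 log2 differences were above 0. Psmb8 had 2.20, 1.85 and 2.14 CPM in Ehmt2fl/fl against 2.64 and 12.4 CPM in Ehmt2+/+, a difference of -1.90 ± 0.57 (adjusted p = 0.34). That pair of controls was uneven across the list, with replicate 2 above replicate 1 in 35 of 39 members and at least 2 times as high in 19. The same replicate held more lymphocyte and MHC class II transcripts: the MHC class II list summed to 89.3, 93.0 and 39.5 CPM in YA Ehmt2fl/fl (7 of 9 listed) against 64.8 and 445 CPM in YA Ehmt2+/+, and the T and NK cell markers, not listed in YA Ehmt2fl/fl, to 1.19 and 31.0 CPM. The median over the members was -0.78 without YA Ehmt2+/+ replicate 1, with 6 members lower (Psmb8, Gbp7, Psmb9, Mx1, Zbp1 and Oas3, of which the last 3 were not among the 33), a comparison of 3 mice with the single high replicate 2, and 0.23 without replicate 2, with none called. Plscr1 was the 1 member of 33 with all 3 Ehmt2fl/fl above both Ehmt2+/+ mice, where 15.5% of all genes were, and Psmb8 and Gbp2 had all 3 below, as 12.7% of all genes did. Plscr1 stood at 2.34, 2.71 and 3.40 CPM in Ehmt2fl/fl against 0.793 and 1.34 CPM in Ehmt2+/+ and was not called (1.37 ± 0.40, adjusted p = 0.32).

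At PN day 10, 0 of 30 tested members passed between the genotypes, against 0.679% of all genes, and 2 had an unadjusted p under 0.05; DESeq2 called 0. The median log2 difference was 0.25, with 24 of 30 above 0, against 0.00 over all genes. The largest in size were 0.96 ± 0.48 for Parp14, 0.77 ± 0.32 for Ddx58 and -0.70 ± 0.19 for Bst2 (adjusted p = 0.53, 0.45 and 0.22). All 3 Ehmt2fl/fl pups were above all 3 Ehmt2+/+ pups for 6 of 30 members (Irf9, Dhx58, Ifih1, Gbp2, Gbp3 and Gbp7), by 0.30 to 0.58 on the log2 scale, where 8.93% of all genes had that order, and below them for 2 (Rsad2 and Bst2), against 5.47% of all genes. None of the 8 passed the test. The difference between genotypes did not itself differ between the ages for any of 30 members, against 0.0336% of all genes, although 6 had an unadjusted p under 0.05 and the median was -0.57; Psmb8, Gbp7 and Psmb9 were called without YA Ehmt2+/+ replicate 1.

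With age, members moved both ways. In Ehmt2fl/fl, 5 of 30 were higher in YA (Rsad2, Irf7, Usp18, Bst2 and Ifit3) and 2 lower (Psmb8 and Gbp2), against 7.64% and 13.1% of all genes. In Ehmt2+/+, 8 were higher (Irf9, Dhx58, Irf7, Usp18, Parp14, Ifit1, Tap1 and Stat2) and 1 lower, against 7.25% and 10.2%. Irf7 was higher in YA by 1.55 ± 0.42 in Ehmt2fl/fl (adjusted p = 0.018) and 2.17 ± 0.45 in Ehmt2+/+ (adjusted p = 0.0077). The lower one in Ehmt2+/+ was Plscr1 at -1.84 ± 0.38 (adjusted p = 0.0076), which in Ehmt2fl/fl was at -0.82 ± 0.29 (adjusted p = 0.052) and under the fold minimum. Acinar markers were higher in YA for 9 of 9 in Ehmt2fl/fl and 8 of 9 in Ehmt2+/+, and these calls depended on scaling: with library totals in place of TMM, all genes shifted by -2.35 and -2.05 in Ehmt2fl/fl and Ehmt2+/+, and no member was higher in YA. The number higher in Ehmt2+/+ was 1 without YA Ehmt2+/+ replicate 2 and 5 without PN Ehmt2+/+ replicate 3, and in Ehmt2fl/fl it was 3 without YA Ehmt2fl/fl replicate 1 or 3 or PN Ehmt2fl/fl replicate 1, and the number lower was 1 without YA Ehmt2fl/fl replicate 2.

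Other genes of the pathway were read from a second list. After caerulein, 57 of 76 were higher and 1 lower in Ehmt2fl/fl, and 35 of 81 higher and 1 lower in Ehmt2+/+, beside the 18.5% and 14.7% of all genes in Ehmt2fl/fl and the 10.4% and 9.61% in Ehmt2+/+. This list was not split by listing in untreated YA mice, where 11.1% and 6.71% of the listed genes were higher. For any gene of it listed only through treated mice, the listing favours a rise. The type I receptor chain Ifnar1 rose in Ehmt2fl/fl by 1.70 ± 0.19 and was at 0.60 ± 0.19 in Ehmt2+/+, and the interferon gamma receptor chain Ifngr1 rose in Ehmt2fl/fl by 1.45 ± 0.24 and was at 0.65 ± 0.24 in Ehmt2+/+. Ifngr2 rose in both, by 1.35 and 1.15. Irf1, a factor that interferon gamma induces, rose by 1.20 and 1.32. The lowest adjusted p in Ehmt2fl/fl were those of Irf5 (2.37), of the DNA-binding PYHIN genes Ifi207 (3.74) and Ifi204 (3.88), and of Psmb10, and in Ehmt2+/+ those of the peptide loading genes Tapbp (1.59) and Tap2 (1.75), of Psme1 (1.59) and of Psmb10. Psmb10, the third catalytic subunit of the immunoproteasome, was the one that fell, by 2.61 and 1.63, while Psmb8 rose in both and Psmb9 in Ehmt2fl/fl. Acinar markers fell as well, with a median log2 difference of -4.29 in Ehmt2fl/fl and -2.59 in Ehmt2+/+. The part of acinar cells or their transcripts in the fall of Psmb10 was not tested.

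Between the genotypes after caerulein, 4 of 80 genes of this second list were higher over both drivers and 0 lower, a share near the 5.32% of all genes: Ifi207 (1.61 ± 0.27, adjusted p = 0.0028), Ifi204 (1.70 ± 0.33, adjusted p = 0.0060), Oas1g (1.84 ± 0.38, adjusted p = 0.0075) and the DNA sensor Cgas (1.10 ± 0.30, adjusted p = 0.031). With Pdx1-Cre alone 3 of 81 were higher (4.22% of all genes), Ifi204, Ifi207 and Tmem173, the adaptor STING (1.10 ± 0.30, adjusted p = 0.060), and with P48-Cre alone 2 of 81 (4.01% of all genes), Oas1g and Ifi204. Irf1 was not called (-0.38 ± 0.24), and Ifnar1 and Ifngr1 had adjusted p = 0.0053 and 0.0014 at 0.68 and 0.69, under the fold minimum. In untreated mice, 0 of 70 genes of this list were called at either age. The second list also held the interferon genes, so any of them tested are within these counts. Their single values are not reported here.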

How the data were processed

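RNA from whole pancreas was sequenced as polyA libraries with a kit that does not mark strand (Illumina TruSeq RNA v2). The authors aligned reads to GRCm38.p6 and deposited raw counts per gene for the genes that passed a filter on low values in each of 6 comparisons, done in edgeR 3.28.1. They also deposited RPKM values, log2 fold changes with mean log2 CPM, p-values with their adjusted form, a score of direction and gene lengths; of these, only the lengths were used here, for levels per kb. No sample column was of another series (0 columns).

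The tests used edgeR 4.0.16 under R 4.3.3 on the deposited counts of all genes listed: TMM factors, filterByExpr with a minimum count of 10 and minimum total of 15, and the quasi-likelihood F-test with Benjamini-Hochberg adjustment over all genes of a comparison. Called genes passed an adjusted p of 0.1 and a minimum log2 change of 1. There were 3 models: PN with YA mice, treated with untreated Pdx1-Cre mice, and treated mice of both drivers. Genes not listed in every group of a model were tested in the compared groups alone. Printed CPM use a single set of TMM factors, which discount the abundant digestive enzyme transcripts. Groups came from the sample labels; these do not say whether replicates of a group share a litter, and p-values measure the spread between the mice sequenced. The scripts were tested on simulated counts.

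Members, their roles and the lists of pathway genes and cell markers were chosen with earlier results of these data known. Every library is given for members called in any genotype or caerulein comparison and for the 2 members of each role with the highest mean CPM, and Gbp5 is given by its range; pathway genes are named if they are receptors or Irf1, or had one of the 4 lowest adjusted p; 1 other gene of this rule is not reported here. Gene positions are from Gencode on GRCm38, and promoter sequence from RefSeq. Alternatives were RLE factors, library totals, TMM without digestive enzyme and mitochondrial genes, no expression filter, DESeq2 1.42.0, the compared groups alone, an adjusted p under 0.05, no fold minimum, sex as a covariate, and each library left out.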

Additional observations from a re-analysis of the deposited data

Results flagged for a closer look

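Only the treated Pdx1-Cre Ehmt2+/+ group had 4 libraries, and 5 of 39 members had 1 library of it apart from the other 3 by a gap that, as a share of the group's range, passed Dixon's critical value, where chance gives about 1 in 20. That 1 in 20 is the nominal rate of the test, and the share of all genes past this value was not taken. The count of 5 is therefore not read as an excess in this list. The gap was 0.914 of the range for Slfn4, with replicate 2 high at 8.02 CPM against 2.91, 3.13 and 3.35 CPM in the others. It was 0.886 for Oas2, with replicate 4 high at 7.22 CPM, and 0.838 for Ddx58, with the same replicate high at 25.4 CPM. It was 0.892 for Dhx58, with replicate 3 low at 4.76 CPM, and 0.880 for Irf7, with the same replicate low at 15 CPM. Dhx58 in that group ran only from 4.76 to 5.21 CPM.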

How the results depend on the processing

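Of the alternatives, library totals in place of TMM moved the most, since they shift all genes by a median log2 of 2.37 and 1.54 for caerulein in Ehmt2fl/fl and Ehmt2+/+, and by 0.81 to 0.84 between treated genotypes. With them, 39 of 39 members were higher with caerulein in each genotype, 22 were higher in treated Ehmt2fl/fl with Pdx1-Cre, 13 with P48-Cre and 23 over both drivers, 11 had a larger caerulein response in Ehmt2fl/fl, and 0 were higher and 27 lower in YA than PN in Ehmt2fl/fl, against 0 higher and 21 lower in Ehmt2+/+. They turned the YA against PN difference round for Rsad2 (-0.94), Irf7 (-0.79), Usp18 (-1.08), Bst2 (-1.20) and Ifit3 (-0.96) in Ehmt2fl/fl, and for Irf9 (-1.02), Dhx58 (-0.22), Usp18 (-0.47), Parp14 (-0.069), Ifit1 (-0.31), Tap1 (-0.78) and Stat2 (-0.53) in Ehmt2+/+. Because all genes shift with library totals, these counts of members do not set the members apart from other genes. The share of all genes called with library totals is not reported here. DESeq2 called 1 member lower in YA Ehmt2fl/fl, 1 larger caerulein response, 4 higher with Pdx1-Cre, and 1 lower over both drivers (Gbp5). With the compared groups alone, 1 member was higher with Pdx1-Cre and 5 in YA against PN Ehmt2+/+. With sex as a covariate, 1 was higher with Pdx1-Cre and 8 over both drivers. At an adjusted p under 0.05, 1 was higher with Pdx1-Cre and 3 in YA against PN Ehmt2fl/fl. With no fold minimum, 8 were higher and 4 lower in YA against PN Ehmt2fl/fl, and 1 was lower over both drivers. The cause of these moves, other than the shift of library totals and the changed thresholds, was not tested.

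Leaving out each library in turn gave 12 to 29 members higher with caerulein in Ehmt2+/+, 0 to 3 with a larger response in Ehmt2fl/fl, 1 to 4 higher in Ehmt2fl/fl with Pdx1-Cre, 1 to 2 with P48-Cre, and 3 to 8 higher and 0 to 1 lower over both drivers. It gave 0 to 6 lower in YA Ehmt2fl/fl, 0 to 3 lower for the genotype difference between ages, 3 to 6 higher and 1 to 3 lower in YA against PN Ehmt2fl/fl, and 1 to 12 higher in YA against PN Ehmt2+/+. Plscr1 was called between treated genotypes in every alternative run. No paired analysis was possible because the labels give the groups no shared replicate numbers. With 2 mice in 3 of the groups, single libraries set several medians.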
